A study of Mus musculus with 16 samples.

Results

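The 34 genes described here encode enzymes of glycolysis (17 genes) and of the citric acid cycle with the pyruvate dehydrogenase complex that feeds it (17 genes). They were chosen by gene symbol, with no measured value in the rule, and all 34 were found among the 40481 genes listed and were among the 14949 genes tested. Messenger RNA was sequenced from the brains of 16 male mice purchased at 18 months of age, labelled C57BL (C57BL/6J in the study). In the adropin group, 8 mice received adropin(34-76), the putative secreted part of the peptide hormone adropin. The dose was 90 nmol/kg/d by daily intraperitoneal injection for 1 month. In the saline group, 8 mice received the diluent, saline with bovine serum albumin. All mice were fasted for 6 h before the brains were collected and frozen, and these mice were taken from animals that had been tested for behavior. The labels call the tissue brain and name no region, so levels are averages over all the cells in each sample. Each mouse carries the 2 numbers of its label as a name, such as 1_3.

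Glycolysis splits glucose in the cytosol into pyruvate, which lactate dehydrogenase interconverts with lactate or which mitochondria turn into acetyl-CoA and oxidize in the citric acid cycle. Most neuronal ATP comes from this oxidation, while astrocytes are known for a high rate of glycolysis and for lactate release. Several steps are served by isozymes, products of different genes that catalyze the same reaction and are favored by different cell types, such as neuronal enolase (Eno2) and the brain aldolase of astrocytes (Aldoc). The study asked whether adropin treatment altered the transcriptome of the aged brain, and it reported effects on genes of morphogenesis and of cellular metabolism.

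Total counts ranged from 35185051 to 70314050 per mouse in the adropin group and from 35026503 to 47245785 in the saline group. Levels are given in CPM, which are counts relative to the size of the library, with TMM factors applied to correct for differences in library composition. Differences were tested with edgeR's quasi-likelihood test over all 14949 genes. Neuron markers (10 of 10 tested, Eno2 among them) summed to 9177 to 10869 CPM in adropin and to 9148 to 9938 CPM in saline. Saline mice 8_3 and 5_4 stood apart on choroid plexus markers, whose 5 tested genes summed to 2460.2 and 328 CPM in them, to 12.6 to 27.8 CPM in the other saline mice and to 11.1 to 73.4 CPM in adropin. All 5 were reduced in adropin at an unadjusted p below 0.05, against 2.13% of all genes, and 2, Prlr and Kl, without mouse 8_3, against 1.5%. The 7 cerebellum markers summed to 761.9 CPM in mouse 8_3 against 200 to 259 CPM in adropin. Adropin mice 3_3 and 4_3 and saline mice 5_4 and 8_3 lay apart from the other 12 on the first component of variation among mice of a group, described with the correlations.

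None of the 34 enzymes differed between adropin and saline at an unadjusted p below 0.05, and the differences were smaller than the standard deviation between mice within groups for all but Pgk1 (0.10 against 0.097 on the log2 scale). Of all genes tested, 278 (1.86%) were increased and 318 (2.13%) reduced at that threshold, and 0 (0%) had an adjusted p below 0.05. The number of genes increased moved by over 1.5 times when single mice were left out, to 162 without adropin mouse 1_3, 488 without 3_3 and 921 without 4_3, and to 632 without saline mouse 5_3 and 477 without 7_1. The number reduced was 192 without adropin mouse 2_4, 207 without 4_1 and 524 without 4_3. Limma-voom also called 0 of the 34, and DESeq2 called 1, Pgk1, at an unadjusted p of 0.0480. The smallest adjusted p among the 34 was 0.874 (edgeR, Benjamini-Hochberg adjustment). The 95% intervals of all 34 fold changes lay between 0.845 and 1.20, so larger differences in either direction fell outside every interval of this fit. At a fold change above 1.5 with an unadjusted p below 0.05, a cutoff passed by 63 genes in all (0.421%), none of the 34 was called. The ranges of the 8 adropin and 8 saline mice overlapped for all 34, a count that was not taken over all genes tested.

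The 17 glycolytic genes had a median log2 fold change of 0.017 with TMM factors, 13 above 0 and 4 below, and the median was -0.0038 when counts were scaled to library size only, with 8 above and 9 below. With the first number of the labels as a block it was -0.041, with 6 above and 11 below. Only the first numbers 2, 5 and 7 occurred in both groups, so this block compared only the mice with those numbers. The 17 genes of the citric acid cycle had a median of -0.0034, with 7 above 0 and 10 below. It was -0.024 with library size only (5 above and 12 below) and -0.069 with the first number as a block (2 above and 15 below). Over all genes tested the median was -0.0019. The differences had a median absolute log2 fold change of 0.043 in glycolysis and 0.030 in the cycle against 0.074 over all genes tested, where the median standard error was also larger (0.096, against 0.058 and 0.053). Fitted differences ran from -0.084 (Aldoc) to 0.10 (Pgk1).

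**Figure D1:**
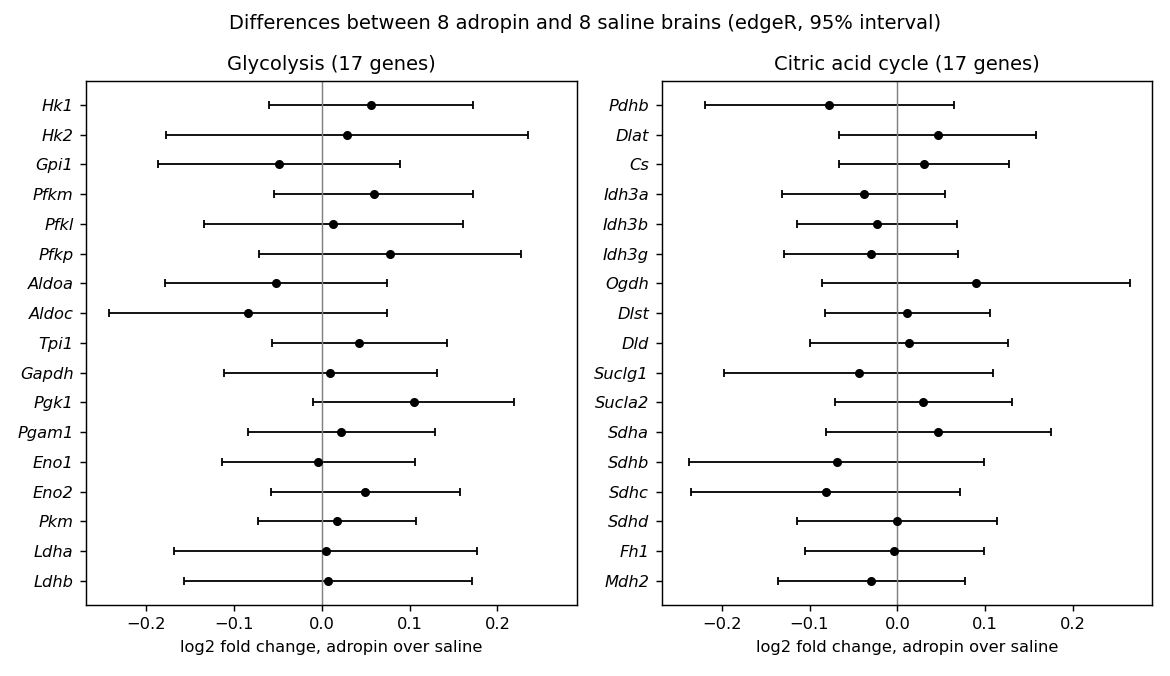
The log2 fold change of each gene, adropin over saline, on the horizontal axis, with points for the edgeR estimate and bars for its 95% interval, 8 mice in each group. All 34 bars cross 0, and the point farthest to the right is Pgk1 at 0.10.

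Pgk1 came nearest to the threshold. It encodes phosphoglycerate kinase, the enzyme of the first ATP-forming step of glycolysis, and lies on chromosome X of GRCm38 from 106187100 to 106203699. Its lowest, median and highest levels were 229, 249 and 292 CPM in adropin and 214, 238 and 261 CPM in saline. The adropin mice lay toward the higher end, with mouse 1_3, the most deeply sequenced library, at the top, but the ranges overlapped over most of their width. The fitted log2 fold change was 0.10 (standard error 0.05, 95% interval -0.0098 to 0.22, unadjusted p of 0.0708 by edgeR). The unadjusted edgeR p passed below 0.05 without saline mouse 2_3 (0.12, p of 0.0332), adropin mouse 3_3 (0.12, p of 0.0470) or adropin mouse 4_3 (0.13, p of 0.0278). It also did when the 4 mice that lay apart were left out together (0.11, p of 0.0335). In these 4 refits 231, 488, 921 and 893 of all genes tested were increased at that threshold, against 278 with all mice. The p of Pgk1 rose to 0.144 without adropin mouse 1_3 (0.080), 0.132 without saline mouse 5_4 (0.085) and 0.146 with library size only (0.081). With the first or the second number of the labels as a block it was 0.518 (0.056) or 0.133 (0.11). The level of Pgk1 moved with the first component (r = -0.71 over 16 mice) and with the log2 of the total counts (r = 0.65). The part of either in the difference was not tested. Pgk1 is also widely used as a reference gene for quantitative PCR, as are Gapdh and Sdha, whose log2 fold changes were 0.0096 (standard error 0.06) and 0.047 (standard error 0.06).

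Hexokinase, which phosphorylates glucose, showed no call. Hk1, the hexokinase bound to brain mitochondria, had a lowest, median and highest level of 458, 505 and 532 CPM in adropin and of 412, 489.7 and 524 CPM in saline (log2 fold change 0.056, standard error 0.06, edgeR adjusted p = 0.877). Hk2, the insulin-responsive hexokinase of muscle and fat, was near the floor of the filter at 3.69, 4.27 and 4.92 CPM in adropin and 3.56, 4.41 and 5.48 CPM in saline (0.028, standard error 0.10, edgeR adjusted p = 0.958). Both groups overlapped for each gene, and Hk2 had the lowest count of any of the 34, with 134 reads in the mouse where it was lowest, against 1917 or more for the others.

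Phosphofructokinase, the main controlled step of glycolysis, is a tetramer of muscle (Pfkm), liver (Pfkl) and platelet (Pfkp) type subunits. Pfkm stood at 402, 468 and 482 CPM in adropin and 389.6, 449 and 459 CPM in saline (log2 fold change 0.059, standard error 0.05, edgeR adjusted p = 0.876). Pfkp stood at 236, 275 and 298 CPM against 209, 270.1 and 281 CPM (0.078, standard error 0.07, edgeR adjusted p = 0.876), and Pfkl at 191, 216 and 247 CPM against 173, 212 and 249 CPM (0.013, standard error 0.07, edgeR adjusted p = 0.975). Of the 8 adropin mice, 5 lay above every saline mouse for Pfkm, 4 for Pfkp and 0 for Pfkl. Such counts were not taken over all genes tested. The sign for Pfkl turned to -0.0075 with library size only and to -0.072 without the 4 mice that lay apart.

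Aldolase cleaves fructose 1,6-bisphosphate. Aldoa, the widely expressed form, had the highest level per length of all 34 genes and stood at 1862, 2029 and 2251 CPM in adropin and 1981, 2093 and 2544 CPM in saline (log2 fold change -0.052, standard error 0.06, edgeR adjusted p = 0.878). Aldoc had the lowest fitted difference, at 837, 896 and 985 CPM in adropin against 823, 910.4 and 1259 CPM in saline (-0.084, standard error 0.08, edgeR adjusted p = 0.874). The saline top of 1259 CPM was mouse 8_3, the library with high choroid plexus and cerebellum markers, and the next saline mouse was at 1027 CPM. Without the 4 mice that lay apart, which include 8_3, the log2 fold change of Aldoc was -0.014.

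Enolase makes phosphoenolpyruvate. Eno1, the ubiquitous form, stood at 669.8, 747 and 803 CPM in adropin and 689, 735 and 839 CPM in saline (log2 fold change -0.0039, standard error 0.05, edgeR adjusted p = 0.990). Eno2, the neuronal form, stood at 878, 976 and 1028 CPM and at 839, 938 and 979.9 CPM (0.049, standard error 0.05, edgeR adjusted p = 0.877). For Eno1 the saline range enclosed all but the lowest adropin mouse, and for Eno2 the adropin range lay higher, with 2 of 8 adropin mice above every saline mouse.

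Lactate dehydrogenase joins pyruvate to lactate. Ldha, whose subunit is linked with lactate production, stood at 251, 288 and 359 CPM in adropin and 265, 285 and 379.6 CPM in saline (log2 fold change 0.0043, standard error 0.08, edgeR adjusted p = 0.994). Ldhb, whose subunit is linked with lactate use, stood at 431, 486 and 563 CPM and at 371, 491 and 598 CPM (0.0067, standard error 0.08, edgeR adjusted p = 0.989). Both differences were near 0 although these genes were among the more variable of the 34, and with library size only they were -0.014 and -0.015. Of the remaining glycolytic genes, Gpi1 (glucose-6-phosphate isomerase) had a log2 fold change of -0.049, Tpi1 (triosephosphate isomerase) of 0.043, Pgam1 (phosphoglycerate mutase) of 0.022 and Pkm (pyruvate kinase) of 0.017. Pkm was the steadiest, with a standard deviation within groups of 0.05 on the log2 scale, smaller than that of all but 0.395% of the genes tested.

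In the mitochondrion, the pyruvate dehydrogenase complex links both pathways. Pdhb, the beta subunit of its first enzyme, had the smallest p of the cycle list, at 82.1, 92.3 and 102 CPM in adropin and 84.7, 95.2 and 115 CPM in saline (log2 fold change -0.078, standard error 0.07, edgeR adjusted p = 0.874). Dlat, the acetyl transferase core of the complex, and Dld, the lipoamide dehydrogenase shared with the oxoglutarate dehydrogenase complex, had log2 fold changes of 0.046 and 0.013. The groups overlapped for all of these subunits.

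Ogdh, the first enzyme of the oxoglutarate dehydrogenase complex and a controlled step of the cycle, had the largest positive difference of the list. It stood at 237, 297 and 335 CPM in adropin and 215, 265 and 313 CPM in saline (log2 fold change 0.09, standard error 0.08, 95% interval -0.086 to 0.27, edgeR adjusted p = 0.876). The adropin median was above the saline median, yet 2 adropin mice, 3_3 and 4_3, were at 248 and 237 CPM, below it. Dlst, the succinyl transferase of the same complex, differed by 0.011.

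Sdhc, a membrane anchor of succinate dehydrogenase (complex II of the respiratory chain), had the lowest fitted difference of the cycle list, at 74.4, 78.5 and 94.9 CPM in adropin and 75.8, 78.9 and 101 CPM in saline (log2 fold change -0.081, standard error 0.07, edgeR adjusted p = 0.874). The group medians nearly coincided, and the highest saline mice were 8_3, 5_4 and 2_3 at 101, 98.8 and 91.2 CPM. The catalytic subunits Sdha (flavoprotein) and Sdhb (iron-sulfur protein) had log2 fold changes of 0.047 and -0.069, and the other anchor Sdhd had -0.0003.

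Mdh2, the mitochondrial malate dehydrogenase and the cycle gene with the highest level per length, stood at 296, 306 and 336 CPM in adropin and 284, 309.6 and 346 CPM in saline (log2 fold change -0.030, standard error 0.05, edgeR adjusted p = 0.904). Sucla2, the ATP-forming beta subunit of succinyl-CoA ligase, stood at 100.3, 105 and 118 CPM and at 97.4, 105 and 110.5 CPM (0.030, standard error 0.05, edgeR adjusted p = 0.898). The rest of the list comprised Cs (citrate synthase), Idh3a, Idh3b and Idh3g (the 3 subunits of NAD-dependent isocitrate dehydrogenase), Suclg1 (the alpha subunit of succinyl-CoA ligase) and Fh1 (fumarase). Their log2 fold changes ran from -0.044 (Suclg1) to 0.030 (Cs), and all 3 Idh3 subunits lay below 0, at -0.038, -0.023 and -0.030, within 1 standard error of 0.

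Whether treatment shifted the balance between partner genes was asked with log2 ratios of their counts in each mouse, which do not depend on the scaling of the library. In all, 7 ratios were compared by two-sided exact permutation of the group labels over 12870 arrangements. None differed, with p from 0.303 to 0.942 (0.941 to 0.942 after Benjamini-Hochberg adjustment). The smallest p belonged to Sucla2 over Suclg2, the ATP-forming against the GTP-forming subunit of succinyl-CoA ligase, at 2.96 ± 0.09 in the adropin mice and 2.91 ± 0.10 in the saline mice (mean ± SD of 8). The difference was 0.050 (exact permutation p = 0.303). The ratio of Eno1 to Eno2 averaged -0.37 ± 0.14 with adropin and -0.32 ± 0.18 with saline (SD of 8 mice each, exact permutation p = 0.517). For Ldha over Ldhb the values were -0.73 ± 0.26 and -0.72 ± 0.26 (exact permutation p = 0.942), and the groups covered -1.17 to -0.26 and -0.96 to -0.25. The differences for Aldoc over Aldoa, Pfkl over Pfkm, Pfkp over Pfkm and Hk2 over Hk1 were -0.024, -0.042, 0.021 and -0.024.

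**Figure D2:**
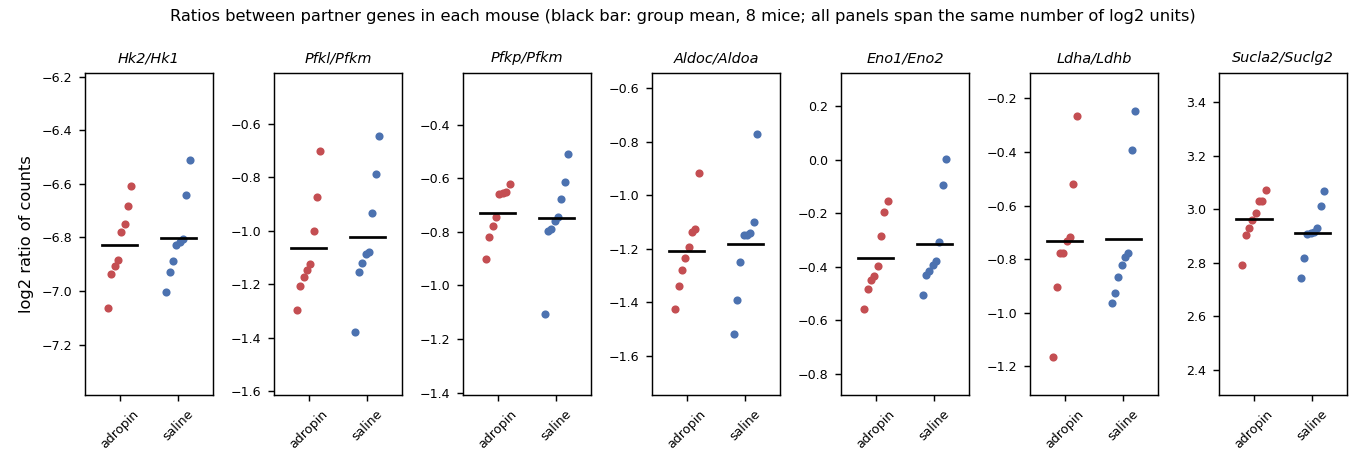
Log2 ratio of counts of partner genes on the vertical axis, 1 point per mouse, for 8 adropin and 8 saline mice, with black bars at the group means and every panel spanning the same width. The groups overlap in all 7 panels, including Sucla2/Suclg2 (means 2.96 and 2.91).

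Set side by side per length, the glycolytic messages were more abundant than those of the cycle. Levels here are TMM-normalized CPM per kilobase of the merged exons of each gene. The median over the 17 glycolytic genes was 135 and that over the 17 cycle genes 37.1, a 3.64-fold difference (3.84-fold when the longest annotated transcript gave the length). Aldoa was highest, with 639.6 to 874 over the 16 mice, followed by Gapdh at 381 to 490.5, the glyceraldehyde-3-phosphate dehydrogenase. Ldhb, Pkm and Aldoc came next with medians of 311, 279 and 277. The lowest was Hk2 with 0.596 to 0.918, and the next lowest were the transferase cores Dlst and Dlat with medians of 14.01 and 16.9. With the longest transcript Dlst was at 41.6 and ranked 26 of 34.

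Of the 33 pairs of neighbors in this order, 10 kept their order in all 16 mice and 23 did not, among them Pkm and Aldoc, Eno2 and Tpi1, and Gpi1, Mdh2 and Ldha. Cycle genes covered a narrower span, from 14.01 (Dlst) to 86.8 (Mdh2). The order also depended on the length used. The ranks under both lengths had a Spearman correlation of 0.96, but Pgam1 and Dlst each moved by 7 places.

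**Figure D3:**
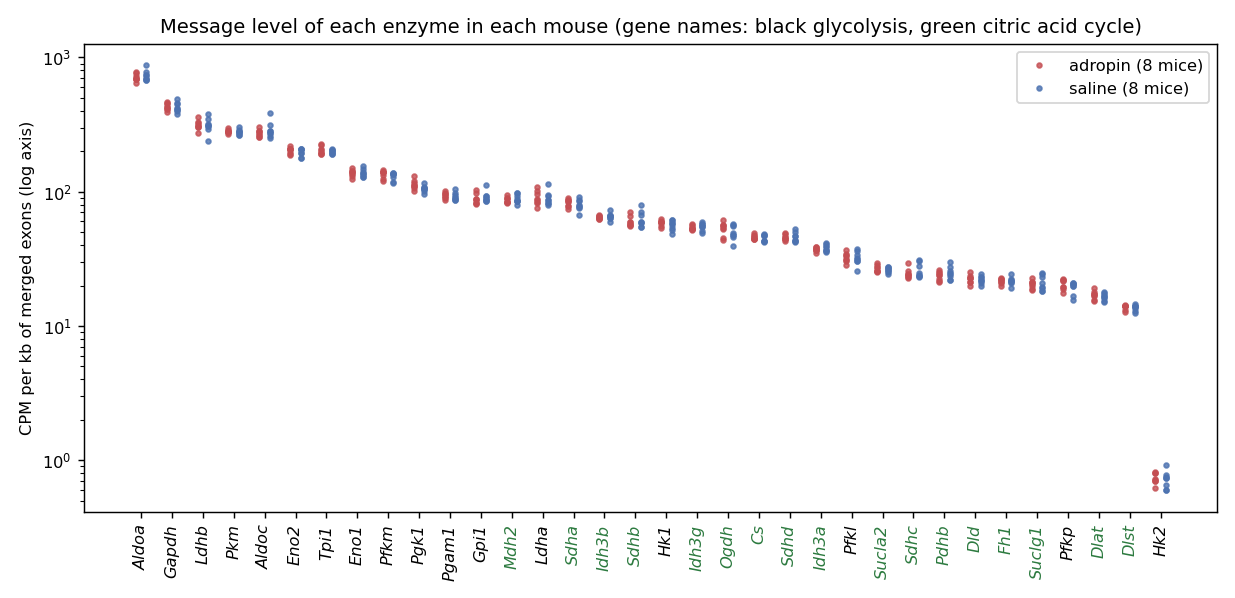
Level of each gene in TMM-normalized CPM per kilobase of merged exons on a log axis, 1 point per mouse, genes ordered by median. Aldoa is highest (median 701), Hk2 is lowest (median 0.729), and the adropin and saline points overlap at every gene.

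Summed over isozymes, the level per kilobase of merged exons of the glycolytic steps was highest at aldolase (median 976, range 941 to 1146). It was lowest at hexokinase (median 59.6, range 48.9 to 63.2). The lowest step depended on the length, since with the longest transcript Hk1 alone was at 117 and Pgam1 at 103. In the cycle the level per kilobase of merged exons was highest for the 4 subunits of succinate dehydrogenase together (median 212) and the 3 of isocitrate dehydrogenase (median 157). Within steps, Hk1 made up 98.8% of the hexokinase message (range 98.5 to 98.9%), Pfkm 66.9 to 76.4% of phosphofructokinase, Aldoa 71.6% of aldolase (65.7 to 76.3%) and Ldhb 78.3% of lactate dehydrogenase (71.4 to 82.5%). With the longest transcript the medians were 99.3% for Hk1, 63.9% for Pfkm, 80.2% for Aldoa and 70.5% for Ldhb. For enolase the leading form changed with the length, since Eno2 made up 60.1% per merged exon and 48.8% per longest transcript. Median shares in adropin and saline were close throughout, for example 72.3% and 71.7% for Pfkm.

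Although the groups did not separate, single mice differed in concert. For each gene the group mean was removed, and the deviations of the 16 mice were correlated between genes. All such values come from the same 16 libraries and share their depth and scaling, so they are descriptions. The median Pearson r was 0.12 over the 136 pairs within glycolysis and 0.31 over the 136 pairs within the cycle. It was 0.19 over the 289 pairs between the lists, against 0.0027 over pairs of 1495 genes taken at even steps through the table. These 1495 genes were not matched to the enzymes in level or in spread between mice. The medians within glycolysis and between the lists fell to 0.013 and 0.087 without saline mouse 2_3, and that within glycolysis was 0.022 without saline mouse 6_2, 0.20 without adropin mouse 3_3 and 0.046 with DESeq2 size factors. Without the 4 mice that lay apart the 3 medians were 0.25, 0.34 and 0.27. Pairs reached from -0.86 to 0.94, and the enzymes of a pathway did not move as a single group.

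One set held the glycolytic genes Aldoa, Ldha and Eno1, with r of 0.91 (Aldoa and Ldha), 0.90 (Aldoa and Eno1) and 0.91 (Eno1 and Ldha). Gpi1 had an r of 0.84 with Aldoa, 0.81 with Ldha and 0.72 with Eno1. Cycle genes moved with this set too. Pdhb had an r of 0.81 with Aldoa and 0.82 with Ldha, and Sdhb had 0.77 and 0.69. Without the 4 mice that lay apart, leaving 12, the first 3 values were 0.71, 0.76 and 0.81, and those of Gpi1 were lower, 0.41 with Aldoa, 0.16 with Ldha and 0.35 with Eno1. In the saline group Aldoa stood at 2544, Ldha at 379.6 and Eno1 at 839 CPM in mouse 5_4, the top of each gene's range, and in the adropin group Ldha (359 CPM), Aldoa (2251 CPM) and Eno1 (803 CPM) were all highest in mouse 3_3.

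The opposite set crossed the pathways as well, and not all of its members moved together. Ogdh and Sdha had an r of 0.94 (0.86 without the 4 mice), Pfkm and Dlst 0.92 (0.80), Pfkm and Eno2 0.91 (0.87), and Hk1 and Cs 0.84 (0.79). Hk1 and Pfkp had 0.825 (0.351), and Pfkm and Pfkp 0.365 (-0.00099). The isozymes of enolase went in opposite directions, with r of -0.68 between Eno1 and Eno2 (-0.53 without the 4 mice). Gpi1 and Ogdh had the lowest r of all, -0.86, which was -0.36 without the 4 mice. Subunits of succinate dehydrogenase fell into both sets: Sdhb and Sdhc had an r of 0.85 (0.78), while Sdha and Sdhb had -0.70, which became 0.071 without the 4 mice. Gapdh and Pgk1, which catalyze consecutive steps, had an r of -0.008 over 16 mice and of 0.86 over 12.

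**Figure D4:**
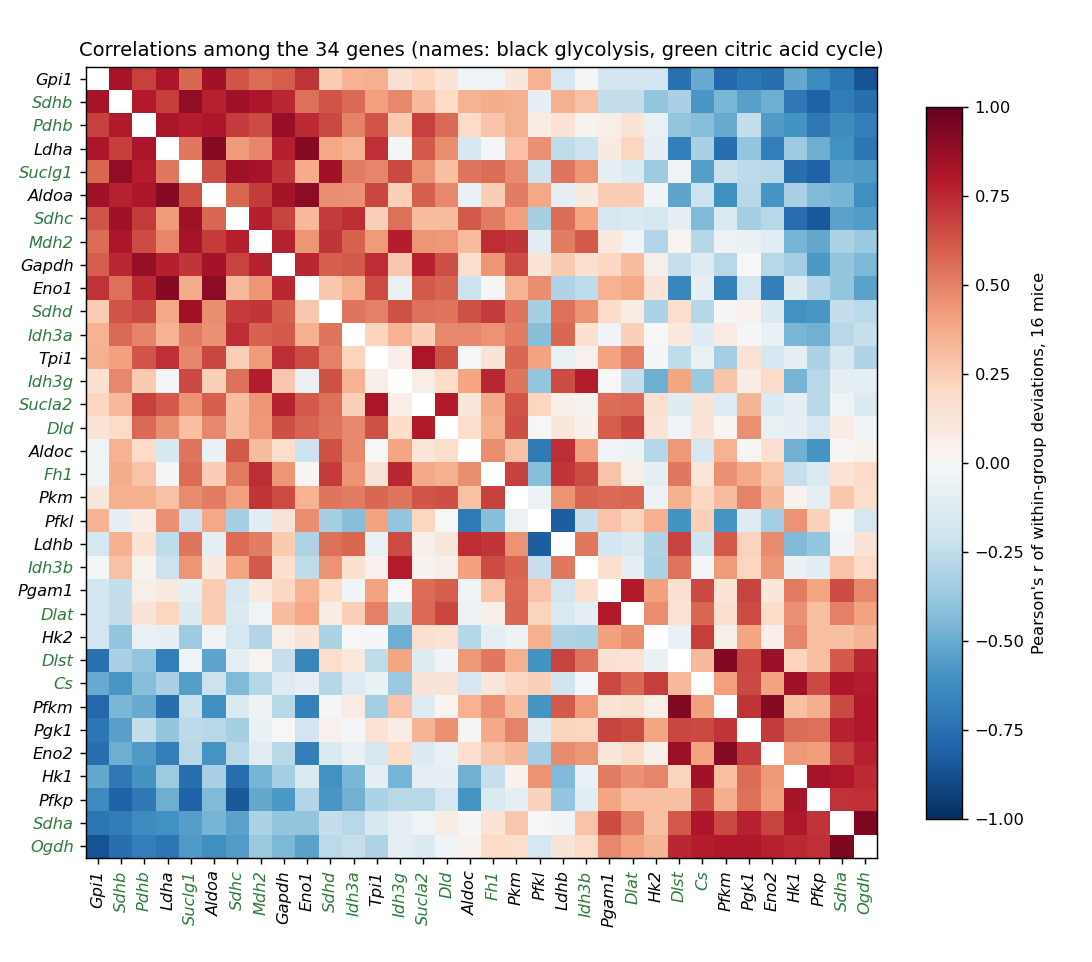
Pearson's r between within-group deviations of each pair of the 34 genes over 16 mice, red for positive and blue for negative, with genes ordered by their correlation with the first component of all genes. Gpi1, Sdhb, Ldha and Aldoa gather at the upper left and Ogdh, Sdha, Pfkp and Hk1 at the lower right, with r down to -0.86 between the corners.

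This division followed the main axis of variation in the whole transcriptome. The first component of the within-group deviations of all 14949 genes held 33.9% of their variance. Of the glycolytic genes, 5 had an r above 0.5 with it and 5 below -0.5, and of the cycle genes 6 and 4. Gpi1 (0.92), Sdhb (0.91) and Pdhb (0.79) were at one end, and Ogdh (-0.93), Sdha (-0.85) and Pfkp (-0.81) at the other. This was not particular to these enzymes, since the median absolute r over all genes tested was 0.54. Mice 5_4, 4_3, 3_3 and 8_3, 2 in each group, had the highest values (0.55, 0.49, 0.29 and 0.28), while the other 12 lay below 0. Ogdh was lowest in these same mice, with 215, 237, 248 and 249.8 CPM, and at 258 CPM or more in the others.

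Across 14942 genes with an annotated transcript, the correlation with this component fell with the length of the longest transcript (Spearman rho = -0.56) and was nearly unrelated to GC content (0.085). Across the 34 enzymes the same values were -0.48 and -0.051. Genes are not independent replicates, and whether transcript length has a part in the movement of the enzymes was not tested. The astrocyte and endothelium markers also moved with members of the opposite set: the astrocyte score had an r of 0.76 with Ogdh, 0.75 with Sdha and -0.69 with Gpi1, and the endothelium score 0.80 with Dlst and -0.79 with Gpi1 (16 mice each). In bulk tissue, fewer cells of a type and less RNA per cell cannot be told apart.

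**Figure D5:**
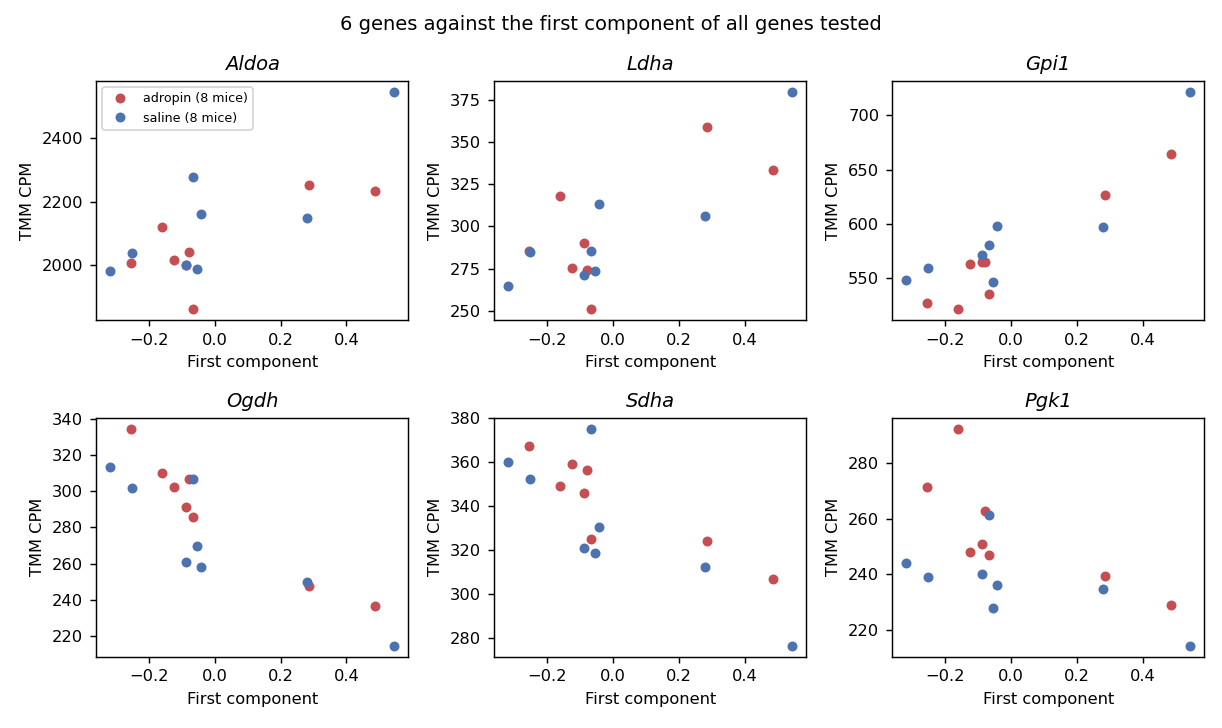
TMM-normalized CPM of 6 genes on the vertical axes against the value of each of 16 mice on the first component of all genes tested. Aldoa, Ldha and Gpi1 are higher toward the right and Ogdh, Sdha and Pgk1 lower, and the 4 mice at the right (values from 0.28 to 0.55) include 2 of each group.

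Aldoc and Ldhb, both high in saline mouse 8_3, had an r of 0.74 with each other. Their deviations followed the oligodendrocyte markers (r = 0.66 for Aldoc and 0.74 for Ldhb), with 0.70 and 0.71 when mouse 8_3 was left out. With the astrocyte markers, Aldoc itself left out, Aldoc had an r of 0.30 (0.47 without mouse 8_3). Aldoc also had an r of 0.79 with the cerebellum markers, but this fell to 0.034 without mouse 8_3, so it rested on that mouse. Pfkp had an r of -0.81 with the choroid plexus markers (-0.70 without mouse 8_3). Pfkl went against the oligodendrocyte markers, with an r of -0.70 to them and of -0.82 to Ldhb. All 8 oligodendrocyte markers had a log2 fold change below 0 between adropin and saline, none at an unadjusted p below 0.05. The part of these markers in the levels of the enzymes was not tested.

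Scores that average the standardized levels of each list summarize the mice. The glycolysis score averaged 0.11 ± 0.35 over the 8 adropin mice and -0.11 ± 0.43 over the 8 saline mice (mean ± SD). The cycle score averaged -0.023 ± 0.38 and 0.023 ± 0.67 over the same mice. The difference of 0.21 in the glycolysis score was smaller than either SD. It lay between 0.093 and 0.31 when each mouse was left out in turn. With library size only it was 0.021, and with the median over genes in place of the mean it was 0.028. The cycle score differed by -0.046, with no stable sign, since leaving out 1 mouse gave -0.17 (saline 6_1) to 0.098 (saline 2_3), and library size only gave -0.25. Of the marker scores, which leave out markers that are among the 34 enzymes, that of neurons (9 markers) had the highest r with the glycolysis score (0.67) and with the cycle score (0.60), and it was itself 0.30 higher in adropin. The log2 of the total counts had an r of 0.52 with the glycolysis score and of 0.34 with the cycle score. The part of the neuron score or of the total counts in these differences was not tested. Adropin mouse 1_3, with the largest library, had the highest glycolysis score (0.79), and saline mouse 2_3 had the highest cycle score (1.22). Together the 17 glycolytic genes took 1.09 to 1.25% of all counts and the 17 cycle genes 0.254 to 0.298%.

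The promoters of Aldoa, Ldha and Eno1 are shown because these 3 glycolytic genes moved together, and that of Eno2 because it moved against Eno1. These 4 genes were chosen after their values were seen. Each window runs from 250 bases before to 50 after a RefSeq start on GRCm38.p6, 5′ to 3′ on the strand of the gene. Capitals mark ACGTG and GCGTG on either strand, the core letters recognized by hypoxia-inducible factor, and an ACGTG on each strand can overlap in CACGTG. Where a gene had several starts, the window with the most matches is printed, and of windows with equal matches (Aldoa and Eno1) the one with the lowest coordinate.
Aldoa promoter, chr7:126799129-126799428, minus strand: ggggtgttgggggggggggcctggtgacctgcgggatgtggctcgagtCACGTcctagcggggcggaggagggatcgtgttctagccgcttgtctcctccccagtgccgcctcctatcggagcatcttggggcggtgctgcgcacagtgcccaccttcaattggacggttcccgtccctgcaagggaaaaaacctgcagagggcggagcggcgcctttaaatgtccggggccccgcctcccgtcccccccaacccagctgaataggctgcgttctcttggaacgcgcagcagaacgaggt
Ldha promoter, chr7:46845554-46845853, plus strand: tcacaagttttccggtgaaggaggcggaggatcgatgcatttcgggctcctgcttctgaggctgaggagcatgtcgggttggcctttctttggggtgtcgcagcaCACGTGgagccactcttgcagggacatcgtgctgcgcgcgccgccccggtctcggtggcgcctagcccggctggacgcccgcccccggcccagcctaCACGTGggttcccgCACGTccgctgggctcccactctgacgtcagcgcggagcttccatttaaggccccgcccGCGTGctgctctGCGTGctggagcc
Eno1 promoter, chr4:150236458-150236757, plus strand: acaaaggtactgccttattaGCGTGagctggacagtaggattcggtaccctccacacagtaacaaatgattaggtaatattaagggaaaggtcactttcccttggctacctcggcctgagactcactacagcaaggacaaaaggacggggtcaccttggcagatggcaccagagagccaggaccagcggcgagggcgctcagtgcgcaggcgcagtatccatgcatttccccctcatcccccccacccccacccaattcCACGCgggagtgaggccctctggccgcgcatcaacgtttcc
Eno2 promoter, chr6:124769624-124769923, minus strand: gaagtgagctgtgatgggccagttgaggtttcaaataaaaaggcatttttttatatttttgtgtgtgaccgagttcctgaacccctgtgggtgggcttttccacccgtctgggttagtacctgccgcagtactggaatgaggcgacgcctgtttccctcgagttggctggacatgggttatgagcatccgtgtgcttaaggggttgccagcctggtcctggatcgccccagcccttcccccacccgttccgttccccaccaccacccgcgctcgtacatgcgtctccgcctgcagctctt

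The Ldha window held 7 matches, counting both strands, that of Eno1 held 2, that of Aldoa 1 and that of Eno2 none. Gpi1, which also moved with Aldoa, had none. Over both lists, 21 of 28 windows of the glycolytic genes and 14 of 20 windows of the 15 cycle genes with a window held a match, against 43.77% of all 32851 windows, and several windows belong to the same gene. Windows of Ogdh, Sdha and Hk1, in the opposite set, also held matches (up to 4, 3 and 5). These letters are a description of the sequence only.

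The counts of some enzymes could be shared with near-identical copies. At 95% identity over at least 150 bases, 9 of the 34 genes had annotated pseudogenes, 149 in all, and 134 of these resembled Gapdh. The pseudogenes of Gapdh together had 5.05% as many counts as Gapdh itself, those of Gpi1 4.02%, of Pgam1 2.42% and of Ldhb 1.77%. With all matches counted, including the protein-coding Eno1b for Eno1 and Peli2 for Gapdh, which matches over 199 bases only, the shares were 2.09% for Eno1 and 6.11% for Gapdh. Only uniquely aligned reads were counted, so reads that fit a gene and its copy equally well would be missing from both. No cycle gene had such a copy. Exons of 9 of the genes also overlapped another gene, the largest overlap with a protein-coding gene being that of Pfkp with Pitrm1 on the opposite strand (5.58% of the exon bases of Pfkp).

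Other genes of energy metabolism gave few calls. In a list of 9 tested genes for isoforms of other tissues and related enzymes, 1 was increased, Ldhd, a mitochondrial D-lactate dehydrogenase that is not an isoform of a glycolytic enzyme (log2 fold change 0.15, standard error 0.06, unadjusted p of 0.0285). Of the 11 transport genes for glucose, lactate and pyruvate, 1 was increased, Slc16a7, the monocarboxylate transporter of neurons that carries lactate and pyruvate (0.28, standard error 0.12, unadjusted p of 0.0349). Of 19 genes of anaplerosis and the malate-aspartate shuttle, 1 was reduced, Slc25a13, a mitochondrial aspartate-glutamate carrier (-0.36, standard error 0.15, unadjusted p of 0.0290), at a level of 1.67 CPM in adropin and 2.15 CPM in saline. All had an adjusted p of 0.874 (edgeR).

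In glycogen metabolism 1 of 16 genes was increased, Epm2a, the glycogen phosphatase laforin (log2 fold change 0.11, unadjusted p of 0.0292). Of 20 genes of the hypoxia-inducible factor pathway, 2 were reduced and 1 increased at an unadjusted p below 0.05. Ddit4, an inhibitor of mTORC1 signaling, was at -0.24 (unadjusted p of 0.0129), P4ha1, a collagen prolyl hydroxylase, at -0.15 (unadjusted p of 0.0139), and Egln3, an oxygen-sensing prolyl hydroxylase, at 0.25 (unadjusted p of 0.0304). None of 11 regulators of glycolysis, 8 genes of the pentose phosphate pathway or 19 other genes of pyruvate dehydrogenase and the cycle passed the threshold. These counts are read against 1.86% increased and 2.13% reduced over all genes. The reference genes that the study used, Hprt, Rplp0 and Ppib, had log2 fold changes of -0.12, -0.088 and -0.090, and 0 of the 3 passed the threshold.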

How the data were processed

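Poly-A selected RNA from 16 mouse brains was sequenced. Per the study's methods, reads were aligned with STAR to the Ensembl release 76 assembly (GRCm38), and uniquely aligned, unambiguous reads were counted per gene with featureCounts. The authors deposited these as raw counts, with 355 ribosomal RNA genes among them, and also as CPM, which were not used. The strand setting of the counting is not given in the sources used here, so overlapping genes are uncertain. From the counts, 276 repeated entries of 40757 were dropped and TMM factors were calculated over all genes with edgeR 4.0.16 under R 4.3.3. A gene had to exceed 1 CPM in 7 or more mice, which is the study's own filter, and ribosomal RNA genes were excluded. This left 14949 genes for edgeR's quasi-likelihood test without covariates. Log2 levels used a prior count of 2 and ratios a pseudocount of 0.5. Limma-voom (limma 3.58.1) and DESeq2 1.42.0, other scalings and filters, label numbers as a block and leaving out each mouse were alternatives. Leaving out the 4 mice that lay apart, and mouse 8_3 for the marker genes, was chosen after seeing the data.

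The members and lists were chosen with earlier results of these data known. Named with values by mouse were the 3 members of each list with the smallest p, the members of the ratios and the highest level per length of each list. Other members named for their correlations were chosen after their values were seen. Lengths and coordinates come from GENCODE M21 (GRCm38) and promoters from RefSeq GRCm38.p6. Scripts were tested on simulated data. Library totals from 35026503 to 70314050 gave at least 134 counts per member and mouse.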

Additional observations from a re-analysis of the deposited data

Results flagged for a closer look

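Within groups of 8 mice, the highest or lowest value was set apart from the rest when its gap to the nearest mouse was a larger part of the group's range than Dixon's 95% critical value allows for 8 samples. Over 90 groups of values 5 were set apart, where chance gives about 4.5. Saline mouse 5_4 was set apart for Gpi1, at 721 CPM with the next mouse at 599 CPM, and for Ldha, at 379.6 CPM with the next at 313 CPM. Saline mouse 8_3 was set apart for Aldoc, at 1259 CPM with the next at 1027 CPM. Adropin mouse 4_3 was set apart for Sdhc, at 94.9 CPM with the next at 83.8 CPM. The share of counts taken by the 17 cycle genes was 0.298% in saline mouse 2_3 and 0.274% in the next mouse. Of these mice, 5_4, 8_3 and 4_3 were among the 4 with the highest values on the first component, and 2_3 was not.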

How the results depend on the processing

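Of 463 values recomputed under other settings, 406 kept their direction and their side of the threshold or moved by less than the spread between mice, as did 855 of 928 values with 1 mouse left out. In 850 refits of the 34 genes, 5 gave an unadjusted p below 0.05, all for Pgk1, and the largest absolute log2 fold change was 0.17. The cause of the changes below was not tested. All genes increased numbered 158 with library size only, 841 without a filter and 893 without the 4 mice, and genes reduced numbered 1061 without a filter and 616 without the 4 mice. Genes past 1.5-fold numbered 1353 without a filter. DESeq2 gave 2 genes at an adjusted p below 0.05 (Benjamini-Hochberg). Glycolytic genes increased numbered 1 with DESeq2 and 1 without the 4 mice. The fold of glycolysis over cycle levels was 3.84 with the longest transcript.

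Library size only reversed Pfkl (-0.0075), Gapdh (-0.011), Pkm (-0.0038), Ldha (-0.014), Ldhb (-0.015), Dlst (-0.011) and Dld (-0.0077). Without the 4 mice Pfkl (-0.072), Ldha (-0.0044), Sdhd (0.011) and Fh1 (0.0093) reversed. Limma-voom reversed Sdhd (0.0021), and group medians reversed Ldha/Ldhb (0.052).

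What the label numbers stand for is not given. Correlations between same-numbered mice of both groups averaged from -0.078 to 0.066 for the first number, with 1 or 2 pairs per number. For the second number the averages ran from -0.33 to 0.10. Single pairs ran from -0.27 to 0.22 and from -0.56 to 0.30, so these values cannot decide whether the numbers pair the mice. The first-number block compared only mice numbered 2, 5 and 7, the first numbers that occurred in both groups. With the first number as replicate block, genes increased numbered 132 and reduced 195, the median log2 fold changes were -0.041 (glycolysis) and -0.069 (cycle), and Pfkl (-0.079), Tpi1 (-0.027), Gapdh (-0.089), Pgam1 (-0.057), Pkm (-0.056), Ldha (-0.11), Ldhb (-0.0035), Dlat (-0.0052), Cs (-0.024), Dld (-0.055), Sucla2 (-0.035), Sdha (-0.0045), Pfkp/Pfkm (-0.016), Aldoc/Aldoa (0.12) and Sucla2/Suclg2 (-0.0016) reversed. With the second number as block, genes increased numbered 146, 2 genes had an adjusted p below 0.05 (edgeR), and Hk2 (-0.0086), Gapdh (-0.027), Ldha (-0.026), Ldhb (-0.0093), Sdhd (0.0019) and Fh1 (0.0042) reversed.

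Leaving out 1 mouse at a time gave 162 to 921 genes increased, 192 to 524 reduced, 0 to 3 at an adjusted p below 0.05 (edgeR), 49 to 107 past 1.5-fold and 0 to 1 glycolytic genes increased. The signs were not stable for Hk2 (-0.011 to 0.084), Pfkl (-0.027 to 0.046), Gapdh (-0.016 to 0.040), Eno1 (-0.022 to 0.023), Ldha (-0.031 to 0.062), Ldhb (-0.044 to 0.052), Dlst (-0.0068 to 0.035), Dld (-0.010 to 0.036), Sdhd (-0.020 to 0.030), Fh1 (-0.027 to 0.021), Hk2/Hk1 (-0.055 to 0.018), Pfkl/Pfkm (-0.094 to 0.012), Pfkp/Pfkm (-0.030 to 0.055), Aldoc/Aldoa (-0.072 to 0.035) and Ldha/Ldhb (-0.077 to 0.058).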
